A study of Homo sapiens with 4 samples.

Results

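To investigate the enzymes that make and break down prostaglandins and thromboxane after loss of LDB1, the rows of 10 genes were taken by gene name from a table of 28412 genes. The genes were PTGS1, PTGS2, PTGES, PTGES2, PTGES3, HPGDS, PTGDS, TBXAS1, HPGD and PTGR1, and all 10 had a row. The set was chosen by the level of PTGES, which lay near 0 in the control libraries and was well expressed in the knockdown libraries, so PTGES is described here without a test. RNA-seq was performed on 4 libraries of the cell line labelled NB4, a human promyelocytic leukemia line. In 2 libraries the cells carried the lentiviral control vector sh-NC (genotype control), and in 2 they carried a lentiviral shRNA vector against LDB1 (sh-LDB1, genotype LDB1 knockdown). The control carried a vector too, although its source label reads as untreated. The study used 3 shRNAs against LDB1, and which of them was sequenced is not given in the labels.

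Prostaglandins and thromboxane are signalling lipids made from arachidonic acid, which phospholipases release from membranes. The cyclooxygenases PTGS1 and PTGS2 turn arachidonic acid into prostaglandin H, and terminal synthases then turn prostaglandin H into prostaglandin E, prostaglandin D or thromboxane A. In blood, platelets are known for thromboxane, mast cells for prostaglandin D, and activated monocytes and macrophages for prostaglandin E. PTGES, the microsomal prostaglandin E synthase, and PTGS2 are known as the inducible enzymes of the pathway, whereas PTGS1, PTGES2 and PTGES3 are known as constitutive ones.

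The deposited values were FPKM, fragments scaled to gene length and to library depth, which allow levels of different genes to be compared. They corresponded to between 14381195 and 16650729 reads per library. LDB1, the adaptor protein that binds the LIM domains of LMO2 and is the target of the shRNA, measured 135.1 and 120.1 FPKM in sh-NC and 10.2 and 9.47 FPKM in sh-LDB1. The difference was -3.56 on the log2(FPKM + 1) scale (SE 0.0765, limma, adjusted p = 6.93e-05). Of 13300 genes tested, 2635, or 19.8%, passed both thresholds (adjusted p-value under 0.05, fold over 2 or under 0.5 on that scale). In sh-LDB1, 9.5% of genes were higher and 10.3% lower. The labelled cell type was checked against its markers. Of 7 promyelocyte and neutrophil markers, 5 had a value, and MPO and CTSG had no row under these names. Of the 5, PRTN3 and AZU1 reached 1 FPKM in every library and ELANE was at 0 in 3 libraries. The 5 summed to 5.26 and 4.22 FPKM in sh-NC and 11.4 and 8.77 FPKM in sh-LDB1, where PRTN3 and AZU1 were higher and CEBPE and MS4A3 were lower than in sh-NC. Of 11 erythroid markers, 8 reached 1 FPKM in every library, and their list summed to 3730 and 3903 FPKM in sh-NC and 316.1 and 282.5 FPKM in sh-LDB1. The data thus go against the promyelocytic label, and the cells are called NB4 here because the labels do so. Nothing in the labels says that replicates came from separate cultures, so the p-values measure the spread between these libraries, which may be technical.

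Results showed that PTGES was barely detected in sh-NC, at 0.0652 and 0 FPKM, and reached 28.7 and 26.4 FPKM in sh-LDB1. These values corresponded to 2 and 0 reads in sh-NC and to 871 and 758 reads in sh-LDB1. Both sh-LDB1 libraries were far above both sh-NC libraries, and the mean in sh-LDB1 was 27.5 ± 1.59 FPKM (SD, n = 2). Over the pooled libraries the counts were 1629 against 2, which is a ratio of 808.7 after correction for depth (exact 95% interval 223.5 to 6683, counting error only). PTGES was chosen by these values, so the interval describes the read counts and is not a test. The mean in sh-LDB1 was 268.7 times the mean level of a floor of 3 reads per sh-NC library, which is 0.0978 and 0.107 FPKM. By mean level PTGES ranked 23789 of 28412 genes in sh-NC and 1661 in sh-LDB1. In bulk RNA, a larger share of cells that express a gene and more RNA per cell cannot be told apart.

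PTGES (ENSG00000148344) lies on the minus strand of chromosome 9 at 129738331-129753042 (GRCh38, GENCODE release 44). PTGS2 (ENSG00000073756), the other enzyme known as inducible, lies on the minus strand of chromosome 1 at 186671791-186680922. Their promoters are shown since these inducible partners had very different levels in sh-LDB1. The 250 bases before the RefSeq start of each gene (GRCh38.p14) are given 5′ to 3′ on the gene's strand, chr9:129753043-129753292 for PTGES and chr1:186680424-186680673 for PTGS2, with GGGCGG motifs in capitals.
PTGES: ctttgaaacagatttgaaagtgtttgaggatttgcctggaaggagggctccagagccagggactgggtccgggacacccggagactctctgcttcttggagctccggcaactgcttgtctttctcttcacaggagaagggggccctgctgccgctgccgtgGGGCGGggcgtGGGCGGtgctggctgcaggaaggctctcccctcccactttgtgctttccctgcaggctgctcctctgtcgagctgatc
PTGS2: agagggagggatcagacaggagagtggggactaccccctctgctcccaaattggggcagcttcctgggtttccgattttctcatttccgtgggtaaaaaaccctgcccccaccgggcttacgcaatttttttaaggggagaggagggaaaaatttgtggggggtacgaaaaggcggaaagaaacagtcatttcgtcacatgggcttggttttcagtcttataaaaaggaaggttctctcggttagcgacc
The motifs searched, on both strands, were AGATAA and TGATAA, which GATA factors are known to bind, the E-box CAGCTG, and the GC box GGGCGG. PTGES held 2 GC boxes, a motif found in 42.6% of 35116 promoters of the same length, and PTGS2 held none of the 4 motifs. The 10 enzymes had 14 such promoters, since PTGES2, PTGS1 and HPGD had more than 1, whereas the shares given here are per promoter. An enzyme is named where any of its promoters held the motif. GC boxes also occurred before PTGES2, PTGES3, PTGS1 and HPGD, with 4 in the promoter of PTGES3 and 4 in 1 promoter of PTGES2. GATA motifs occurred before PTGS1 and HPGDS, and the E-box before PTGDS and HPGD. AGATAA occurred in 9.17% of all promoters, TGATAA in 6.66% and CAGCTG in 14%. The GC content was 61.2% for PTGES and 50.4% for PTGS2, beside a median of 58% over all promoters. A match of letters is a description of the sequence and not a site.

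**Figure D1:**
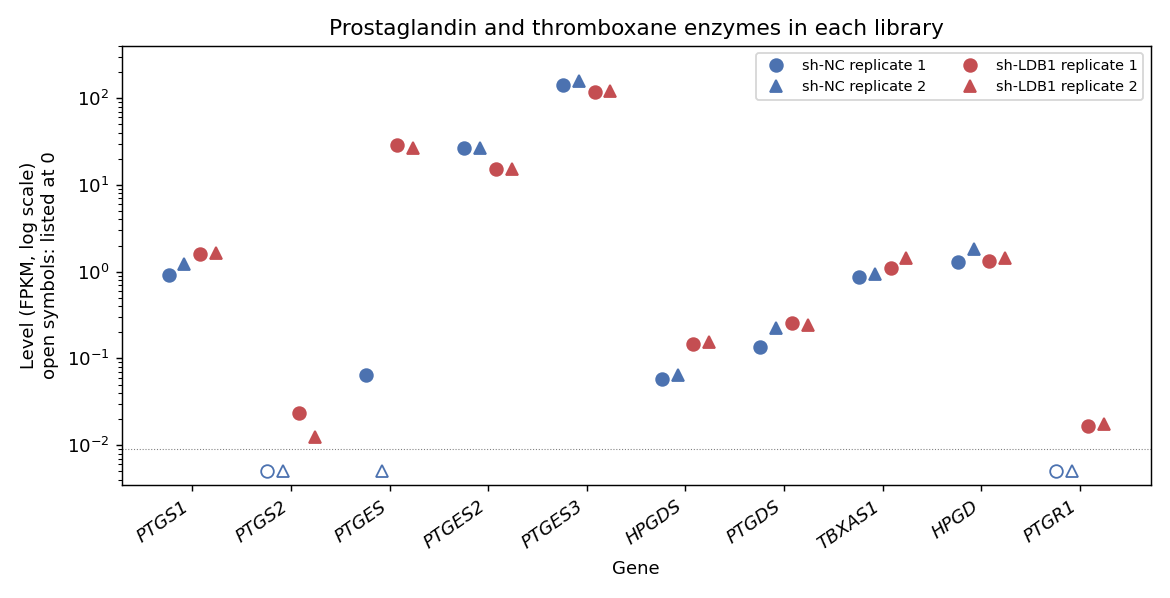
Level of each of the 10 enzymes (FPKM, log axis) in the 2 sh-NC and 2 sh-LDB1 libraries, with 1 point per library and open symbols for genes listed at 0. PTGES moves from 0.0652 and 0 FPKM to 28.7 and 26.4 FPKM, whereas PTGS2 and PTGR1 stay below 0.1 FPKM in every library.

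The cyclooxygenases were low in all libraries. PTGS1 (ENSG00000095303, chromosome 9, 122370530-122395703, plus strand) measured 0.918 and 1.23 FPKM in sh-NC and 1.62 and 1.63 FPKM in sh-LDB1. Both sh-LDB1 values lay above both sh-NC values, but the difference of 0.34 on the log2(FPKM + 1) scale (SE 0.136, 95% interval -0.02 to 0.71) did not pass the test (limma, adjusted p = 0.0825). This call depended on the setting, since PTGS1 had an adjusted p-value below 0.05 in 3 of 11 alternatives, and its adjusted p-values ranged from 0.00763, in the limma fit of reads by voom, to 0.206. The lncRNA AL162424.1, which overlaps PTGS1 on the same strand, had 0 reads in both sh-NC libraries and 1 read in each sh-LDB1 library, too few to compare.

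PTGS2 was at 0 reads in both sh-NC libraries and at 2 and 1 reads in sh-LDB1, or 0.0237 and 0.0125 FPKM. In 1 library of mean depth a count of 0 allows up to 0.0367 FPKM, and both sh-LDB1 values lie below that limit. With 3 reads against 0 over the pooled libraries, a difference of PTGS2 was not detectable at this depth. In the sh-LDB1 libraries PTGES stood 17.7 and 16.2 times above PTGS1, the higher of the cyclooxygenases.

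The constitutive prostaglandin E synthases were lower in sh-LDB1. PTGES2 (ENSG00000148334, chromosome 9, 128120693-128128462, minus strand), a membrane-associated synthase, measured 26.5 and 26.4 FPKM in sh-NC and 15.2 and 15.1 FPKM in sh-LDB1. The groups did not overlap, and the mean in sh-LDB1 was 57.4% of that in sh-NC. The difference was -0.76 on the log2(FPKM + 1) scale (SE 0.0416, 95% interval -0.87 to -0.65, limma, adjusted p = 0.000236), which passed the p-value threshold but not the fold threshold. It passed that p-value threshold in all 11 alternatives, with differences of -0.80 to -0.65.

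PTGES3 (ENSG00000110958, chromosome 12, 56663341-56688408, minus strand), the cytosolic synthase that is also the HSP90 co-chaperone p23, was the most abundant of the enzymes. It measured 141.2 and 156.8 FPKM in sh-NC and 118.0 and 122.1 FPKM in sh-LDB1, so that the groups did not overlap and the mean in sh-LDB1 was 80.6% of that in sh-NC. The difference was -0.31 (SE 0.0645, 95% interval -0.48 to -0.13, limma, adjusted p = 0.0127). Over the 11 alternatives it ranged from -0.38 to -0.19. The smallest decrease came with scaling by total reads (limma, adjusted p = 0.0493). Without sh-LDB1 replicate 1 the adjusted limma p-value was 0.0837, and without replicate 2 it was 0.0604, while the other 9 alternatives passed. Reads of PTGES3 may be shared with its pseudogenes, so its level is uncertain to that extent. PTGES3P1 measured 10.9 and 8.14 FPKM in sh-NC and 8.01 and 6.43 FPKM in sh-LDB1, PTGES3P3 and PTGES3P2 were at 1.51 FPKM or lower, and RN7SL809P, which overlaps PTGES3 on the same strand, ranged from 0.210 to 1.60 FPKM.

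These levels set the composition of the prostaglandin E synthase transcripts. PTGES made up 0.0389% and 0% of the summed FPKM of PTGES, PTGES2 and PTGES3 in sh-NC, whereas in sh-LDB1 it made up 17.7% and 16.1%. The share of PTGES2 was 15.8% and 14.4% in sh-NC, and in sh-LDB1 it was 9.38% and 9.25%. PTGES3 stayed the largest component in every library, with 84.2% and 85.6% in sh-NC, and in sh-LDB1 with 72.9% and 74.6%. The summed FPKM of the 3 genes was 167.8 and 183.2 in the sh-NC libraries, against 161.9 and 163.6 in the sh-LDB1 libraries. In sh-LDB1, PTGES stood 1.89 and 1.75 times above PTGES2, and PTGES3 stood 4.12 and 4.62 times above PTGES.

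**Figure D2:**
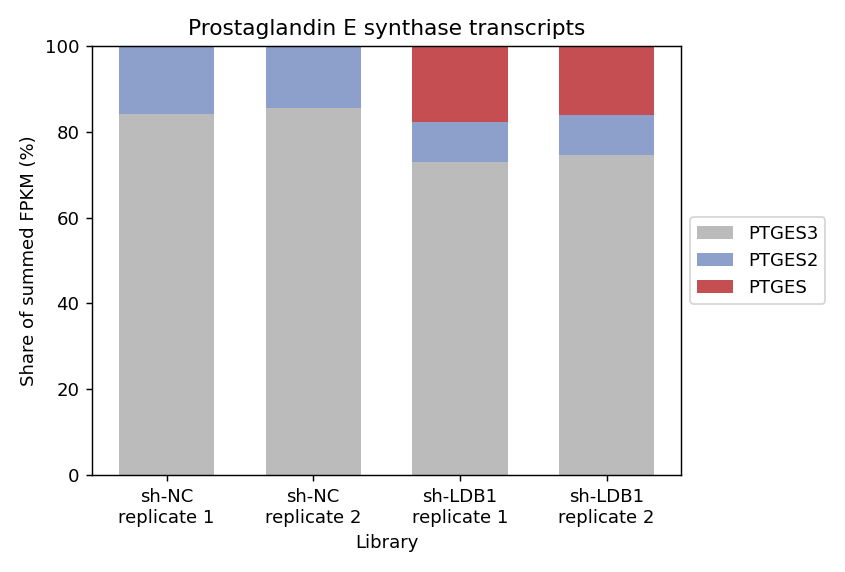
Share of PTGES, PTGES2 and PTGES3 in their summed FPKM (%), with 1 stacked bar per library. The PTGES segment is 17.7% and 16.1% in the sh-LDB1 libraries and too small to see in sh-NC, where it is 0.0389% and 0%.

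The prostaglandin D synthases were close to the limit of detection. HPGDS (ENSG00000163106, chromosome 4, 94298535-94342876, minus strand), the hematopoietic enzyme, measured 0.0585 and 0.0642 FPKM in sh-NC and 0.148 and 0.157 FPKM in sh-LDB1. These are 4 reads against 10 over the pooled libraries, a ratio of 2.48 whose 95% interval of 0.716 to 10.8 includes 1. PTGDS (ENSG00000107317, chromosome 9, 136975092-136981742, plus strand), the lipocalin-type enzyme, measured 0.137 and 0.225 FPKM in sh-NC and 0.253 and 0.244 FPKM in sh-LDB1. Its pooled reads were 15 against 21, a ratio of 1.39 with an interval of 0.683 to 2.90. No difference of either enzyme was detectable at this depth, although the sh-LDB1 values lay above the sh-NC values for both.

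Thromboxane synthase, TBXAS1 (ENSG00000059377, chromosome 7, 139777051-140020325, plus strand), measured 0.877 and 0.930 FPKM in sh-NC and 1.10 and 1.43 FPKM in sh-LDB1. The groups did not overlap, and the difference of 0.25 (SE 0.148, 95% interval -0.15 to 0.64) did not pass the test (limma, adjusted p = 0.204). TBXAS1 reached the filter of a mean of 1 FPKM through sh-LDB1, since its mean in sh-NC was 0.903 FPKM, and without any filter its adjusted p-value was 0.278. In the limma fit of reads by voom it was 0.47 with an adjusted p-value of 0.0468, the lowest of 11 alternatives, of which the highest was 0.509. HIPK2, a kinase gene on the opposite strand, measured 7.96 and 8.40 FPKM in sh-NC and 18.1 and 17.1 FPKM in sh-LDB1. It lies at 139561570-139777998 and overlaps TBXAS1 only at the start of TBXAS1. Whether the counting used strand is not given in the sources used here, so reads of TBXAS1 and HIPK2 could not be told apart where they overlap. Of 8 megakaryocyte and platelet markers, 6 had a value, 2 of these (ITGA2B and GP1BA) reached 1 FPKM in every library, and PF4 was at 0 in 3 libraries. The 6 summed to 9.27 and 8.38 FPKM in sh-NC and 4.66 and 3.90 FPKM in sh-LDB1. TUBB1 made the difference, with 5.97 and 5.41 FPKM in sh-NC and 0.286 and 0.378 FPKM in sh-LDB1, while ITGA2B and GP1BA were not lower in sh-LDB1. Of 5 mast cell and basophil markers, 2 had a value, and these summed to at most 0.349 FPKM in any library.

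Among the enzymes of breakdown, HPGD (ENSG00000164120, chromosome 4, 174490175-174523154, minus strand), the dehydrogenase that inactivates prostaglandins, measured 1.30 and 1.82 FPKM in sh-NC and 1.33 and 1.45 FPKM in sh-LDB1. The groups overlapped, and the difference was -0.09 (SE 0.149, 95% interval -0.49 to 0.31, limma, adjusted p = 0.622). The lncRNA AC096751.2, which overlaps HPGD on the opposite strand, measured between 0.0788 and 0.167 FPKM. PTGR1 (ENSG00000106853, chromosome 9, 111549722-111599893, minus strand), a reductase that acts on the oxidised products, had 0 reads in both sh-NC libraries and 1 read in each sh-LDB1 library, or 0.0166 and 0.0176 FPKM. In 1 library of mean depth a count of 0 allows up to 0.0513 FPKM, and the pooled reads were 2 against 0, so no difference of PTGR1 was detectable.

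**Figure D3:**
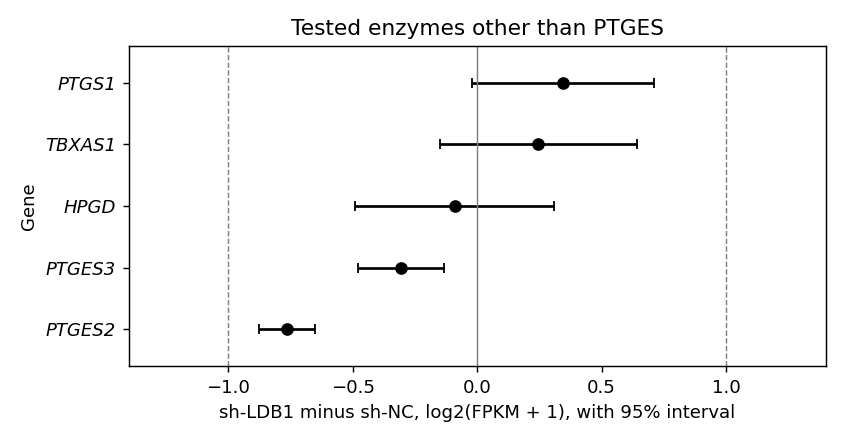
Difference of sh-LDB1 minus sh-NC on the log2(FPKM + 1) scale for the 5 tested enzymes other than PTGES, with 95% intervals from limma and dashed lines at a fold of 2 and 0.5. The intervals of PTGES2 and PTGES3 lie below 0, and none of the 5 points reaches a dashed line.

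Of the 10 enzymes, 6 had a mean of at least 1 FPKM and were tested, and PTGES and TBXAS1 were among them through their sh-LDB1 libraries alone. The counts that follow are therefore descriptions. Of the 5 tested enzymes besides PTGES, 0 passed both thresholds with limma, beside 19.8% of all genes tested, and 2 had an unadjusted p-value below 0.05. With voom, 0 passed both thresholds as well. These 2 enzymes, PTGES2 and PTGES3, also had an adjusted p-value below 0.05, as did 67.4% of all genes. For 4 of the 5 the groups did not overlap, as for 84.6% of all genes. Their median difference was -0.09 on the log2(FPKM + 1) scale, or -0.20 without TBXAS1, beside -0.08 over all genes tested. By mean level the order in sh-NC was PTGES3, PTGES2, HPGD, PTGS1, TBXAS1 and PTGDS, where the ranges of PTGS1 and TBXAS1 overlapped. In both sh-LDB1 libraries PTGES took the second place, above PTGES2, and PTGS1 stood above HPGD and TBXAS1, whose ranges overlapped.

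To compare PTGES with other genes of the same starting level, genes at 0.1 FPKM or less in both sh-NC libraries were ranked by their mean in sh-LDB1. There were 6147 such genes, their median mean in sh-LDB1 was 0.0724 FPKM, and 100 of them, or 1.63%, reached 1 FPKM in both sh-LDB1 libraries. PTGES ranked 1, a place that its choice for this pattern favours. It was followed by TYROBP, a signalling adaptor of myeloid and natural killer cells, at 0 and 0.0748 FPKM in sh-NC and 14.0 and 16.4 FPKM in sh-LDB1. B3GNT6, a glycosyltransferase, measured 0.0235 and 0.0258 FPKM in sh-NC and 8.94 and 10.6 FPKM in sh-LDB1. LY96, the partner of the endotoxin receptor, was at 0 in both sh-NC libraries and at 9.25 and 8.60 FPKM in sh-LDB1, and APOA4, an apolipoprotein, measured 0.0839 and 0.0460 FPKM and then 8.26 and 8.52 FPKM. Of 7 monocyte markers, 5 had a value, 1 of these, LYZ, reached 1 FPKM in every library, and CD14 ranged from 0.108 to 0.350 FPKM. The 5 summed to 6.18 and 5.75 FPKM in sh-NC and 20.3 and 20.2 FPKM in sh-LDB1. LYZ made most of the difference, with 5.85 and 5.61 FPKM in sh-NC and 19.3 and 19.1 FPKM in sh-LDB1. CSF1R, VCAN and S100A9 did not exceed 0.344 FPKM in any library. Whether the level of PTGES is related to these markers was not tested.

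**Figure D4:**
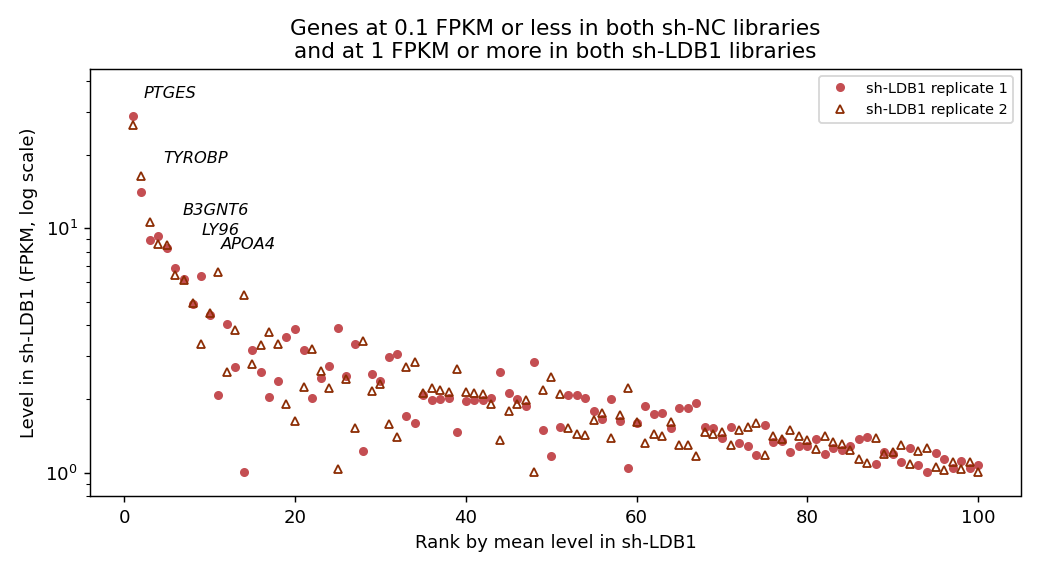
Level in the 2 sh-LDB1 libraries (FPKM, log axis) of the 100 genes at 0.1 FPKM or less in both sh-NC libraries and at 1 FPKM or more in both sh-LDB1 libraries, by rank of their mean. PTGES, at 28.7 and 26.4 FPKM, stands above TYROBP at 14.0 and 16.4 FPKM.

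Of the 3 nearest genes with a value on each side of PTGES, 4 were tested with limma. Of these, 0 passed both thresholds, beside 19.8% of all genes tested. An unadjusted and an adjusted p-value below 0.05 were found for 3, where 67.4% of all genes had such an adjusted p-value. Upstream of PTGES, TOR1B, an AAA ATPase of the endoplasmic reticulum whose start lies 50.1 kb away, measured 10.9 and 12.0 FPKM in sh-NC and 17.3 and 17.2 FPKM in sh-LDB1 (difference 0.55, limma, adjusted p = 0.00187). Its relative TOR1A, 71.2 kb away, measured 14.9 and 13.3 FPKM in sh-NC and 12.3 and 12.8 FPKM in sh-LDB1 (difference -0.15, limma, adjusted p = 0.123). C9orf78, 82.8 kb away, measured 21.2 and 21.0 FPKM in sh-NC and 17.3 and 17.9 FPKM in sh-LDB1 (difference -0.25, limma, adjusted p = 0.00762). Downstream, the homeobox gene PRRX2 did not exceed 0.141 FPKM and the lncRNA AL590369.1 did not exceed 0.289 FPKM, whereas ASB6, 110.9 kb away, measured 4.59 and 4.20 FPKM in sh-NC and 6.20 and 5.75 FPKM in sh-LDB1 (difference 0.37, limma, adjusted p = 0.011).

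The wider eicosanoid pathway was described with a list of 55 other genes, of which 47 had a value and 25 were tested. Of the 25, 5 were called higher and 1 was called lower, which is 24% beside 19.8% of all genes. ALOX5 is among the 5 but reached the level filter through sh-LDB1 alone, and without it 4 of 24 were called higher and 1 lower, or 20.8%. At the adjusted p-value alone 11 were higher and 7 lower, or 72% beside 67.4%. The median difference was 0.08 on the log2(FPKM + 1) scale. Without ALOX5, 17 of 24 passed at the adjusted p-value alone, and the median difference was 0.07.

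Among genes that supply arachidonic acid, 0 of 4 tested genes of its release were called. Of 4 tested genes that return it to phospholipids, 1 was called. Of all genes tested, 19.8% were called. PLA2G12A, a secreted phospholipase, measured 4.88 and 4.67 FPKM in sh-NC and 4.92 and 5.30 FPKM in sh-LDB1 (difference 0.08, limma, adjusted p = 0.346). PLA2G6, an intracellular phospholipase, measured 4.12 and 3.77 FPKM in sh-NC and 2.07 and 2.33 FPKM in sh-LDB1 (difference -0.63, limma, adjusted p = 0.00372), below the p-value threshold but not past the fold threshold. DAGLB, a diacylglycerol lipase, overlapped between the groups, with 4.05 and 4.72 FPKM and then 4.12 and 4.35 FPKM. MBOAT7, which loads arachidonic acid into phosphatidylinositol, rose from 25.8 and 25.9 FPKM to 84.3 and 82.7 FPKM (difference 1.65, SE 0.0389, limma, adjusted p = 7.21e-05).

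Of 4 other tested prostanoid enzymes, 1 was called higher and 1 lower, beside 9.5% and 10.3% of all genes tested. AKR1C3, known as a prostaglandin F synthase, rose from 7.46 and 8.36 FPKM to 26.4 and 25.0 FPKM (difference 1.58, SE 0.071, limma, adjusted p = 0.000158). Its reads may be shared with its close relatives in the AKR1C family, so its level is uncertain to that extent. PRXL2B, known as a prostamide and prostaglandin F synthase, fell from 6.58 and 5.69 FPKM to 2.50 and 2.20 FPKM (difference -1.09, SE 0.0988, limma, adjusted p = 0.000914).

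Of 9 receptors, 2 were tested and 1 was called, beside 19.8% of all genes tested. PTGDR2, a receptor of prostaglandin D, rose from 2.24 and 1.99 FPKM to 11.9 and 11.8 FPKM (difference 2.04, SE 0.069, limma, adjusted p = 0.000108), while the prostaglandin D synthases were at 0.253 FPKM or lower in every library. The thromboxane receptor TBXA2R overlapped between the groups, with 7.39 and 5.22 FPKM in sh-NC and 6.53 and 7.17 FPKM in sh-LDB1. Of the transporters, 2 were tested and 0 called, beside the same 19.8%. ABCC4, which exports prostaglandins, measured 13.1 and 13.8 FPKM in sh-NC and 6.62 and 6.66 FPKM in sh-LDB1 (difference -0.92, limma, adjusted p = 0.000266). It was below the p-value threshold but not past the fold threshold on the log2(FPKM + 1) scale. Its mean FPKM in sh-LDB1 was 49.3% of that in sh-NC, so whether ABCC4 passes a fold of 0.5 depends on the scale. ABCC1, which exports leukotriene C, measured 13.4 and 12.9 FPKM in sh-NC and 20.5 and 20.7 FPKM in sh-LDB1 (difference 0.61, limma, adjusted p = 0.000547).

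The 3 tested relatives of PTGES in the MAPEG family of membrane proteins were not called, where 19.8% of all genes tested were. MGST1, a microsomal glutathione transferase, overlapped between the groups, with 12.2 and 14.5 FPKM in sh-NC and 12.4 and 13.2 FPKM in sh-LDB1. MGST3 measured 8.61 and 9.17 FPKM in sh-NC and 12.8 and 12.0 FPKM in sh-LDB1 (difference 0.44, limma, adjusted p = 0.0036). Of 6 tested lipoxygenase and leukotriene genes, 2 were called, both higher, beside 19.8% of all genes tested. ALOX5, which starts leukotriene synthesis, measured 0.249 and 0.382 FPKM in sh-NC and 2.53 and 3.30 FPKM in sh-LDB1, and since it reached the filter through sh-LDB1 alone its call is given as a description. DPEP2, a dipeptidase that acts on leukotriene D, rose from 1.10 and 1.67 FPKM to 6.19 and 6.59 FPKM (difference 1.64, SE 0.139, limma, adjusted p = 0.000749).

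**Figure D5:**
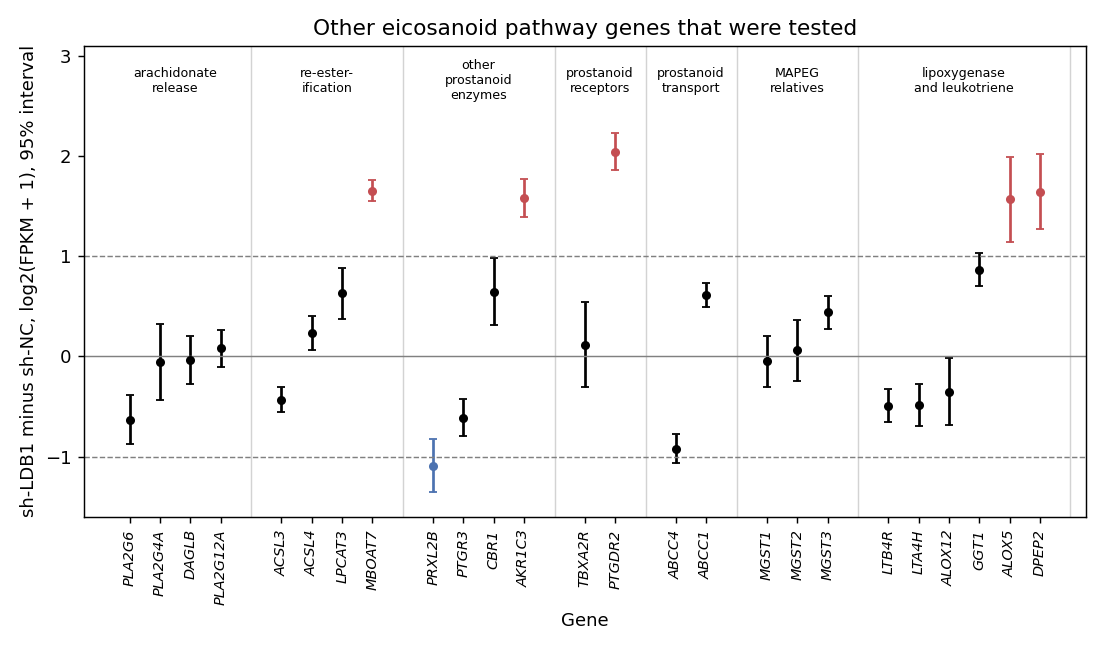
Difference of sh-LDB1 minus sh-NC on the log2(FPKM + 1) scale with 95% intervals from limma for the 25 tested genes of the wider pathway, grouped by role, with dashed lines at a fold of 2 and 0.5. The 5 genes called higher, in red, ALOX5 included, lie between 1.57 and 2.04, and PRXL2B, in blue, lies at -1.09.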

How the data were processed

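RNA-seq of total RNA (Illumina TruSeq kit) was available for 2 sh-NC and 2 sh-LDB1 libraries. Reads were filtered by the authors and aligned with HISAT (HISAT2 2.0.5 and hg38 in the submitters' processing notes), and the deposited values were FPKM per gene and library, with replicates kept apart. Which annotation and counting tool were used, and whether strand was, is not given in the sources used here. No column was without a sample.

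Depth was recovered from the FPKM steps, as whole reads within 0.002 for all libraries in 99.86% of genes, with lengths guided by GENCODE release 44. The FPKM had been divided by 0.972, 0.966, 1.05 and 1.05 times the recovered totals, so they hold a scaling beyond depth. The design allowed for counts. As the values were FPKM, limma 3.58.1 in R 4.3.3 was run on log2(FPKM + 1), with a trend, over the 13300 genes whose mean reached 1 FPKM, with Benjamini-Hochberg adjustment. Fold changes on this scale understate the change of low genes. Intervals of pooled read ratios and limits from 0 reads (3 reads) cover counting error only. An exact permutation test of 2 against 2 libraries cannot go below p = 0.333, so none was used. The steps were tested on simulated data.

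The enzymes, pathway lists and markers were chosen with earlier results of these data known. Genes named besides the enzymes and LDB1 were pathway genes past both thresholds or, in roles with none, the 2 highest by mean, genes overlapping an enzyme, its pseudogenes, the 3 nearest neighbours of PTGES on each side, and the 5 genes most like it. The markers named singly, TBXA2R and PLA2G6 were chosen after their values were seen. Coordinates come from GENCODE and promoters from RefSeq, where all 10 enzymes matched. Alternatives were another pseudocount (0.1), other filters (none, 10 reads), scaling by total reads, voom on recovered reads, no trend, a replicate block, no fold threshold, another floor and leaving out each library.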

Additional observations from a re-analysis of the deposited data

How the results depend on the processing

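Without the fold threshold, 8961 genes (3983 higher, 4978 lower), 2 of the enzymes besides PTGES and 18 pathway genes passed, against 2635, 0 and 6 with it. ALOX5 is among the pathway genes in both counts. With a floor of 3 reads over both sh-NC libraries, PTGES stood 538.5 times above the floor, against 268.7 with a floor in each library. Leaving out each library in turn gave 2614 to 2719 genes, 0 enzymes besides PTGES and 6 pathway genes. The pathway genes called were 7 with a pseudocount of 0.1, with voom and with no filter. The other alternatives called between 2271 genes (at least 10 reads in every library, which leaves PTGES untested) and 3687 genes (voom), and scaling by total reads made 42.6% of calls lower, against 52.0%. Replicate numbers did not pair the libraries (correlation of deviations 0.0196), and the replicate block gave 2660 genes. HPGD ranged from -0.24 to 0.057 with 1 library left out, changed sign without sh-NC replicate 2 and did not reach an adjusted p-value below 0.05 in any of its 11 alternatives. None of the enzymes besides PTGES passed the fold threshold in these fits. At the adjusted limma p-value alone, PTGES3 was above 0.05 without either sh-LDB1 library, PTGS1 was below it in 3 alternatives (0.0234 with the 10-read filter, 0.00763 with voom and 0.0373 without the trend), and TBXAS1 with voom. The cause was not tested. The fitted difference of PTGES ranged from 4.73 to 9.47 and depends on the prior count. The difference of LDB1 kept its direction and its call in all 11 alternatives, from -3.69 to -3.46. With 2 libraries per group and few reads, PTGS2, HPGDS, PTGDS and PTGR1 cannot be compared at this depth.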

Other observations

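Some pathway genes below the level filter had few reads in sh-NC and more in sh-LDB1. They were picked after their values were seen and were not tested. ALOX15, a lipoxygenase of arachidonic and linoleic acid, had 1 read in each sh-NC library and 69 and 56 reads in sh-LDB1, or 1.27 and 1.09 FPKM. AKR1B1, an aldose reductase that can also make prostaglandin F, had 2 and 1 reads in sh-NC and 42 and 47 reads in sh-LDB1, or 0.716 and 0.849 FPKM. ACSL1, which activates long-chain fatty acids, had 16 and 13 reads in sh-NC and 133 and 111 reads in sh-LDB1, or 1.32 and 1.17 FPKM. LTC4S, the leukotriene C synthase and a relative of PTGES, had 6 and 0 reads in sh-NC and 19 and 23 reads in sh-LDB1, or 0.995 and 1.28 FPKM. The groups did not overlap for any of these genes, which their choice favours. Among the tested genes, which do not include these, 84.6% did not overlap either.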
